A study of Mus musculus with 4 samples.

Results

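The 36 genes described here make sterols and fatty acids or control that synthesis. They were chosen by symbol for their roles, 36 of 55536 annotated mouse genes. They comprise 5 regulators, 19 enzymes of the mevalonate and sterol pathway, 3 genes that move, store or bind sterols, and 9 genes of fatty acid synthesis, elongation and desaturation. The libraries were made from bone marrow-derived macrophages of C57BL/6J mice, which are primary cells grown from marrow. All cells had received lipid A, the membrane-anchoring end of bacterial lipopolysaccharide, at 100 ng/ml for 15 min. Ribosome-depleted total RNA of the cytosolic fraction was sequenced in 4 biological replicates, which form 1 group. No unstimulated library was analysed here, so no value below measures a response to lipid A. The 4 samples carry 1 donor record and no age or sex, and nothing in the labels ties them to different mice or cultures. Every p-value therefore rests on the spread among these samples alone, and that spread may be technical.

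Sterol regulatory element-binding proteins (SREBPs) are transcription factors made as membrane proteins of the endoplasmic reticulum. When membrane sterol is low, the escort protein SCAP carries them to the Golgi for cleavage, and when sterol is high, the INSIG proteins hold SCAP back. SREBP-2, the product of Srebf2, acts mainly on the mevalonate and sterol enzymes, whereas the products of Srebf1 also, and for the shorter isoform chiefly, act on fatty acid genes. In macrophages the balance between sterol synthesis, esterification by SOAT1 and efflux is known for its part in foam cell formation and in the innate response.

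Promoter sequences from RefSeq (GRCm38.p6) were read for 29 of the 36 genes, each covering 250 bases before the start site and 50 after it. The 3 genes Hmgcs1, Hsd17b7 and Insig1 are shown as examples that carry several of the motifs searched. They were higher in replicate 1 than in the other libraries, as were other genes with several motifs, such as Sc5d and Mvk. The windows of both Srebf1 transcripts compared later are shown as well. A further Srebf1 window, at chr11:60222532-60222831, is not shown. Capitals mark CCAAT (bound by NF-Y), GGGCGG (bound by Sp1), CACGTG (an E-box) and TCACNCCAC (the core of a sterol regulatory element), on either strand, so that CCAAT also appears as ATTGG and GGGCGG as CCGCCC. The windows are Hmgcs1 at chr13:119690101-119690400 on the plus strand, Hsd17b7 at chr1:169969156-169969455 on the minus strand, Insig1 at chr5:28071162-28071461 on the plus strand, and the Srebf1 windows at chr11:60220578-60220877 (upstream) and chr11:60210422-60210721 (downstream) on the minus strand.
Hmgcs1: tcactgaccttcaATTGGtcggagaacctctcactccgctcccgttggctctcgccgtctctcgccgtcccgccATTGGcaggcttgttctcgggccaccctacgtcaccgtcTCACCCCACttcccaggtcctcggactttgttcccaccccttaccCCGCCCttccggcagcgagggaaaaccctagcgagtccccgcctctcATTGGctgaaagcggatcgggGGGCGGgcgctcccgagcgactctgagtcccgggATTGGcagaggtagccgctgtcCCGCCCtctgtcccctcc
Hsd17b7: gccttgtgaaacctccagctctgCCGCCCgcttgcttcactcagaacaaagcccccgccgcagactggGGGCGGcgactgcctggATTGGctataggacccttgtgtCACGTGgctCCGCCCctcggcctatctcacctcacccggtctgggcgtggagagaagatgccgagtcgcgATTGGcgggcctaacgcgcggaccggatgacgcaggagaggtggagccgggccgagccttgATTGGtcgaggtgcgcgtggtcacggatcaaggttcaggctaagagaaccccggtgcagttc
Insig1: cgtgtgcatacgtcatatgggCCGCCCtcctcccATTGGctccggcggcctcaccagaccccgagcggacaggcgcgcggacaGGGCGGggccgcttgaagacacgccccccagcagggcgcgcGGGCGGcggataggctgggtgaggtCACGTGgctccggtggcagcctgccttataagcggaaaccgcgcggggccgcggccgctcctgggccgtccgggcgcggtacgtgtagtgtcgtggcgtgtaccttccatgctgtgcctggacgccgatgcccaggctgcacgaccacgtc
Srebf1 upstream: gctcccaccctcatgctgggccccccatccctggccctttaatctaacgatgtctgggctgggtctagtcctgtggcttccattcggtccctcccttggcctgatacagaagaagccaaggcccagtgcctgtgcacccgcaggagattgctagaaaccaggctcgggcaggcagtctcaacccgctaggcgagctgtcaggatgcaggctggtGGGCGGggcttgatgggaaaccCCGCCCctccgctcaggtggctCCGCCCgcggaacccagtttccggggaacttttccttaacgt
Srebf1 downstream: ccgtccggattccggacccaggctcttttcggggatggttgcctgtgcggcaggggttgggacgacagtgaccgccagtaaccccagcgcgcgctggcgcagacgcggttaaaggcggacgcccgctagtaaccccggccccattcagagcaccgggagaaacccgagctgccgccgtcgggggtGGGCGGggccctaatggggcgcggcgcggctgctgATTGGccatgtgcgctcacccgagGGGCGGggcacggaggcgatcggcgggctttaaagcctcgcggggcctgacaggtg
The Hmgcs1 window held 4 CCAAT, 3 GGGCGG and 1 TCACNCCAC match, and the Hsd17b7 window held 3 CCAAT, 3 GGGCGG and 1 CACGTG match. Insig1 held 1 CCAAT, 3 GGGCGG and 1 CACGTG match. The upstream Srebf1 window held 3 GGGCGG matches and none of CCAAT, and the downstream window held 2 GGGCGG and 1 CCAAT.

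Across the genes with a promoter entry, CCAAT was found in 24 of 29, or 82.8%, against 37.4% of all 32851 promoters in the table and 42.8% of the 9767 tested genes with an entry. Among sterol enzymes it was found in 15 of 16, with Acat2 the one without, and among fatty acid genes in 3 of 6 (Acly, Elovl5 and Fasn). GGGCGG was found in 23 of 29 genes (79.3%), against 35.7% of all promoters and 67.7% of the tested genes. CACGTG was found in 6 of 29 (20.7%), against 7.15% of all promoters and 11.8% of the tested genes. TCACNCCAC was found in 1 of 29 (3.45%), Hmgcs1, against 1.24% of all promoters and 1.34% of the tested genes. Scd2, Fdps, Fads1, Stard4, Scd1, Sqle and Fdft1 had no promoter entry and were not searched. Genes with several entries counted once if any window held the motif, whereas the shares of all promoters are by window. By window, 67.6% of the 37 member promoters held CCAAT, 73.0% GGGCGG, 18.9% CACGTG and 2.70% TCACNCCAC. Matches to different motifs were counted separately where they overlapped, and a match describes letters, not binding.

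All 36 genes had a mean of at least 1 TPM (a level corrected for transcript length, as a part of each library's total), and all passed the minimum of a mean count of 10. The libraries held 30088678, 47961117, 40282297 and 45771235 expected counts in annotated genes for replicates 1 to 4. The RNA of the signal recognition particle, 7SL, took 57.1 to 63.3% of TPM, which lowers the TPM of every other gene. Protein-coding genes held 30.1, 23.1, 22.9 and 32.4% of TPM in replicates 1 to 4, so their TPM runs higher in replicates 1 and 4. Libraries were therefore tested on CPM scaled by the trimmed mean of M values (scaled CPM, counts as a part of the scaled library total), and TPM was kept mainly for comparing genes. Where libraries are set side by side in TPM below, these shares enter the values. Replicate 1 stood apart from the others over all genes. Its Pearson correlation across genes was 0.980 to 0.984 with the other libraries, against 0.988 to 0.993 among them. The cells' label was met, with 8 of 8 macrophage markers at 1 TPM or more. Defining genes of the other tissues known for lipid synthesis were near 0, with adipocyte markers summing to at most 0.03 TPM and all 4 hepatocyte markers at 0 counts.

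The regulators differed in level and in how far they varied. Insig1, which encodes the sterol-induced retention factor and is itself an SREBP target (chr5:28071363-28078662), had 62.9, 24.6, 19.6 and 41.8 TPM in replicates 1 to 4. Its relative Insig2, which is not driven by SREBP in the same way, had 5.53, 4.17, 4.59 and 6.60 TPM. The Insig1 to Insig2 ratio of TPM was thus 11.4 in replicate 1, 5.90 in replicate 2, 4.26 in replicate 3 and 6.33 in replicate 4. Srebf2 (chr15:82147181-82205379) had 43.8, 25.1, 21.1 and 31.8 TPM, and Srebf1 (chr11:60199089-60222581) had 11.4, 8.38, 7.72 and 11.0 TPM. Srebf2 exceeded Srebf1 by 3.86, 3.00, 2.73 and 2.89 times in replicates 1 to 4, so the ranges of the 2 genes did not overlap. Scap, the escort, had 8.28, 5.39, 5.81 and 8.45 TPM. On scaled CPM, Scap and Insig2 hardly varied between libraries, with an SD of log2 CPM of 0.07 and 0.09, against 0.29 for Srebf2, 0.54 for Insig1 and a median of 0.25 over all 14041 genes tested.

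Most Srebf1 RNA was assigned to Srebf1-201, which held 77.2% ± 5.48 (SD, n = 4) of the gene's TPM. Srebf1-201, whose start lies 10139 bases upstream of that of Srebf1-207, encodes the longer SREBP-1a, and Srebf1-207 encodes SREBP-1c, the form that dominates in liver and fat. Srebf1-201 had 9.68, 6.41, 5.66 and 8.15 TPM in the transcript tables and Srebf1-207 had 1, 0.550, 0.260 and 0.610 TPM. Of the summed TPM of these 2 transcripts, Srebf1-201 held 90.6, 92.1, 95.6 and 93.0% (92.8% ± 2.09, SD, n = 4). The second set of transcript values the authors deposited, here called the target tables, gave 80.8% ± 2.10 (SD, n = 4), so the upstream form led in both while its share depended on the quantification. A further protein-coding transcript, Srebf1-203, is not in these shares and had 0.240, 0.610, 0.900 and 0.530 TPM. It held a mean of 6.46% of the gene's TPM, against 6.07% for Srebf1-207. In the target tables the means were 2.67% and 13.4%.

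**Figure D1:**
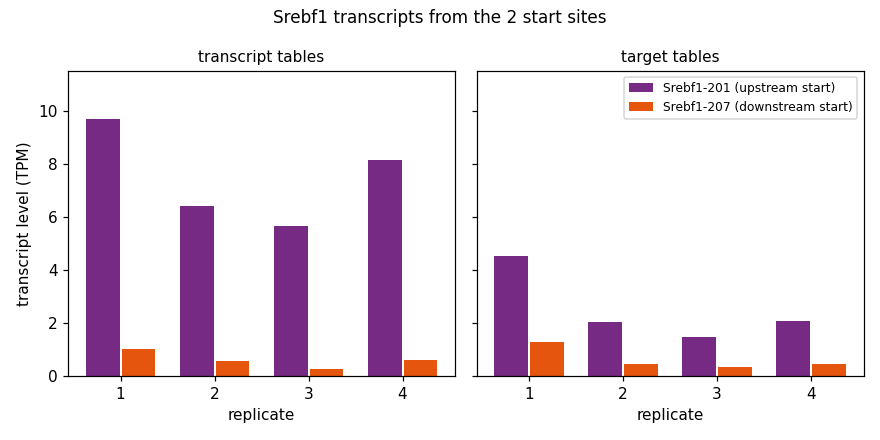
Levels in TPM (bars from 0) of the Srebf1 transcripts from the upstream and downstream start sites in each of the 4 libraries, from the transcript tables (left) and the target tables (right). The upstream transcript is the higher in all 4 libraries in both, at 5.66 to 9.68 TPM on the left.

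Among the sterol enzymes, mean levels ran from 3.68 to 56.2 TPM. Msmo1, the methylsterol monooxygenase, was highest with 98.2, 42.4, 32.5 and 51.6 TPM. Hmgcs1, which condenses acetyl-CoA with acetoacetyl-CoA at the entry of the mevalonate pathway (chr13:119690379-119708260), had 72.4, 32.7, 25.7 and 43.4 TPM, and Fdps, the farnesyl diphosphate synthase at the branch to sterols and isoprenoids, had 59.1, 18.7, 10.2 and 28.8 TPM. In each of these 3, replicate 1 was highest and replicate 3 lowest. The lowest 3 were enzymes of the later pathway. Tm7sf2, a sterol reductase, had 6.60, 3.42, 2.30 and 4.43 TPM, Lss, the lanosterol synthase, had 6.41, 2.66, 1.85 and 4.17 TPM, and Hsd17b7, a sterol ketoreductase (chr1:169949535-169969241), had 8.90, 2.12, 1.28 and 2.41 TPM. Mean levels were 56.2 ± 29.1 TPM for Msmo1 and 43.6 ± 20.6 TPM for Hmgcs1 (SD, n = 4), with overlapping ranges. As a gene total, Msmo1 was the higher within each of the 4 libraries. Its protein-coding transcript Msmo1-201 alone had 65.0, 27.0, 17.6 and 35.9 TPM in replicates 1 to 4, under Hmgcs1 in each. Msmo1-206, a processed transcript not labelled protein-coding, held a mean of 35.0% of the gene's TPM, and 19.1% in the target tables. Tm7sf2 (4.19 ± 1.83 TPM) was above Lss (3.77 ± 2.00 TPM) within each library. Hsd17b7 (3.68 ± 3.51 TPM) was above both in replicate 1 and below both in the other 3. The other 13 lay between, from Acat2, the cytosolic thiolase, at 4.48 ± 2.77 TPM to Sqle, the squalene epoxidase, at 20.8 ± 15.1 TPM.

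Of the genes that handle sterols, Soat1, which esterifies cholesterol for storage, was the most abundant of all 36 with 135, 166, 187 and 220.1 TPM. As a gene total, its lowest library was above the highest single value of any other member, 98.2 TPM for Msmo1. The mean of Soat1 was 177 ± 35.8 TPM (SD, n = 4). Its transcript Soat1-201 alone had 76.0, 80.9, 94.8 and 103 TPM in replicates 1 to 4. Soat1-206, an annotated transcript of 366 bases, held a mean of 27.3% of the gene's TPM, and 33.8% in the target tables. Stard4, a cytosolic sterol carrier, had 17.8, 6.68, 4.53 and 10.1 TPM, and Tmem97, an endoplasmic reticulum sterol-binding protein, had 20.7, 12.6, 10.7 and 17.5 TPM. Soat1 was lowest in replicate 1, whereas Stard4 and Tmem97 were highest there.

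The fatty acid genes had mean levels from 1.35 to 54.5 TPM. Acly, which makes cytosolic acetyl-CoA from citrate, had 39.5, 22.4, 21.4 and 32.5 TPM. Acaca, the acetyl-CoA carboxylase that commits it to fatty acids, had 10.6, 4.54, 5.42 and 7.54 TPM, and Fasn, the synthase, had 20.1, 7.15, 6.31 and 9.27 TPM. All 3 were highest in replicate 1. The elongase Elovl5, which acts on polyunsaturated chains, had 21.6, 13.7, 13.8 and 18.7 TPM. The elongase Elovl6, which acts on saturated chains (chr3:129532355-129638495), had 3.40, 0.620, 0.490 and 0.900 TPM, so that it passed 1 TPM in replicate 1 alone, and its mean fell under 1 TPM without that library.

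The paired desaturase genes were far from equal. Scd2, a delta-9 desaturase that makes monounsaturated chains, had 77.6, 49.8, 35.8 and 54.6 TPM, and its neighbour Scd1 had 2.07, 2.72, 1.24 and 2.50 TPM. The 2 genes lie 87591 bases apart on chromosome 19, and Scd2 exceeded Scd1 in TPM by 37.5, 18.3, 28.8 and 21.8 times. Fads1 and Fads2, the front-end desaturases for polyunsaturated chains, lie 81142 bases apart on chromosome 19 on opposite strands. Fads1 had 32.7, 24.0, 19.8 and 34.1 TPM and Fads2 had 8.34, 2.64, 1.30 and 3.41 TPM. The Fads1 to Fads2 ratio was 3.92 in replicate 1 and 9.09 to 15.3 in the other 3 libraries, and the Elovl5 to Elovl6 ratio was 6.34 in replicate 1 and 22.0, 28.2 and 20.8 in the others. The cytosolic carboxylase Acaca exceeded its mitochondrial counterpart Acacb by 41.3 to 264 times, with Acacb at 0.0775 ± 0.0287 TPM (SD, n = 4) from 16 to 40 counts.

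The levels of the sterol enzymes and the fatty acid genes were compared as groups. The median of log2(TPM + 1) was 3.19 ± 0.58 for the 19 sterol enzymes and 3.41 ± 0.69 for the 9 fatty acid genes (SD, n = 4). The difference, sterol minus fatty acid, was −0.64, −0.05, −0.40 and 0.21 in replicates 1 to 4, a mean of −0.22 ± 0.38, which did not exceed the spread between libraries. On log2(CPM + 1), which is not corrected for transcript length, it was −0.92, −1.46, −1.69 and −1.24, a mean of −1.33 with the fatty acid genes the higher in all 4 libraries.

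**Figure D2:**
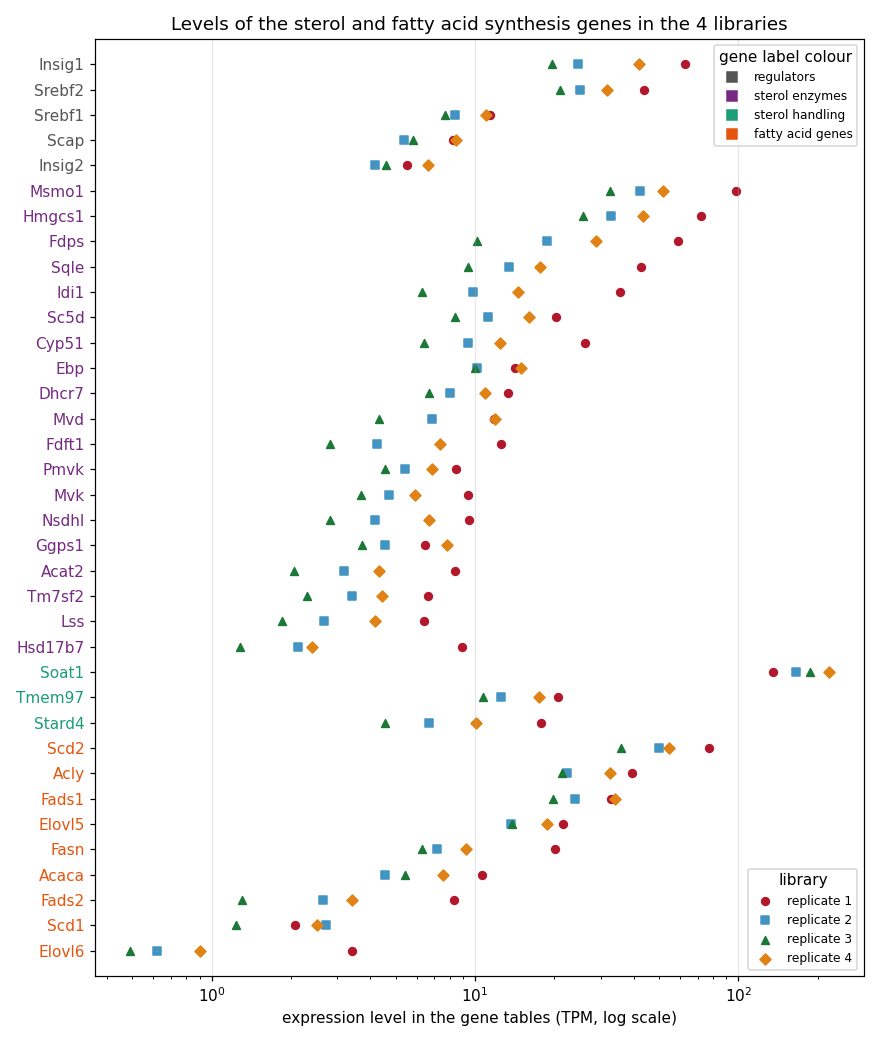
Level in TPM (log scale) of each of the 36 genes, with 1 symbol for each of the 4 libraries and genes ordered by mean within their group (label colour). Soat1 is highest at 135 to 220.1 TPM and Elovl6 lowest, and the replicate 1 symbol lies to the right for most sterol enzymes.

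Between libraries, replicate 1 was the highest on scaled log2 CPM for 18 of the 19 sterol enzymes and 8 of the 9 fatty acid genes, against 41.4% of all genes tested. In edgeR's quasi-likelihood test of replicate 1 against the other 3 libraries, with Benjamini-Hochberg adjustment over 14041 genes, 20 of the 36 members were higher and 0 were lower at an adjusted p under 0.05. In that comparison 14.5% of all genes tested were called higher and 7.58% lower. The 20 comprised 2 of 5 regulators (Insig1 and Srebf2), 12 of 19 sterol enzymes, Stard4 among the 3 handling genes, and 5 of 9 fatty acid genes (Acly, Acaca, Fasn, Elovl6 and Fads2). The median log2 fold was 0.87 for the sterol enzymes, 0.49 for the fatty acid genes and 0.21 for the regulators, against 0.00 for all genes tested. A single library stood on one side, so this test takes its spread from the other 3.

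Values in each library show how the calls arose. Elovl6 had 27.4 scaled CPM in replicate 1 and 6.70, 5.54 and 5.91 in replicates 2, 3 and 4, a log2 fold of 2.18 ± 0.13 (SE, adjusted p = 0.00279 by edgeR). Hsd17b7 had 51.9, 15.9, 9.70 and 12.8 scaled CPM, a log2 fold of 2.02 ± 0.24 (adjusted p = 0.00767 by edgeR). In both genes replicate 1 was more than 3 times the next library. Idi1, the isopentenyl diphosphate isomerase, had 147, 55.0, 35.1 and 54.3 scaled CPM (log2 fold 1.61 ± 0.25, adjusted p = 0.0136 by edgeR). Fads2 had 36.6, 15.7, 7.75 and 13.7 scaled CPM (log2 fold 1.56 ± 0.35, adjusted p = 0.0355 by edgeR). Both were lowest in replicate 3, with replicates 2 and 4 close together. Sqle had 163, 69.1, 49.4 and 62.0 scaled CPM (log2 fold 1.43 ± 0.18, adjusted p = 0.00807 by edgeR), and Fdps had 91.8, 39.6, 21.9 and 41.4 (log2 fold 1.42 ± 0.34, adjusted p = 0.0402 by edgeR). The fold of Fdps had the larger error because replicate 3 lay well under replicates 2 and 4.

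The remaining called sterol enzymes were Cyp51, the lanosterol demethylase (log2 fold 1.28), Acat2 (1.20), Fdft1, the squalene synthase (1.20), Lss (1.04), Msmo1 (0.99), Hmgcs1 (0.87), Mvk, the mevalonate kinase (0.69), and Sc5d, the sterol desaturase (0.60). The 7 that were not called had log2 folds from 0.07 to 0.86, namely Nsdhl at 0.86 ± 0.25, Tm7sf2 at 0.71 ± 0.21, Mvd at 0.43 ± 0.33, Dhcr7 at 0.35 ± 0.13, Pmvk at 0.32 ± 0.14, Ebp at 0.08 ± 0.088 and Ggps1 at 0.07 ± 0.14 (SE). Ebp, the sterol isomerase, was the steadiest of the 36, with 32.1, 30.8, 30.2 and 30.4 scaled CPM. Ggps1, which leads away from sterols to geranylgeranyl groups, had 25.7, 25.3, 21.7 and 26.4 scaled CPM and was the one sterol-pathway enzyme not highest in replicate 1. Of the regulators, Insig1 had 230.2, 123, 94.1 and 133 scaled CPM (log2 fold 0.98 ± 0.19) and Srebf2 had 281, 217, 182 and 184 (0.53 ± 0.13), with replicate 1 above the rest in both. Srebf1, Scap and Insig2 were not called, at 0.21 ± 0.12, 0.09 ± 0.096 and 0.07 ± 0.12.

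The fatty acid genes were not alike. Fasn had 218, 96.9, 94.1 and 95.0 scaled CPM, so that replicate 1 was high and the other 3 lay together (log2 fold 1.19 ± 0.075, adjusted p = 0.00279 by edgeR). Acaca had 86.4, 61.1, 63.4 and 60.8 scaled CPM (0.49 ± 0.078) and Acly had 241, 186, 171 and 177 (0.44 ± 0.096). Both shared the Fasn pattern at a smaller size. The genes not called were Scd2 (0.49 ± 0.21), Elovl5 (0.25 ± 0.090), Fads1 (0.12 ± 0.13) and Scd1 (−0.22 ± 0.43). Scd1 had 12.6, 20.1, 9.01 and 14.7 scaled CPM and was highest in replicate 2, unlike its neighbour Scd2 with 609, 529, 381 and 391. Soat1 went the other way from most members, with 619, 967, 1071 and 801 scaled CPM, but its log2 fold of −0.61 ± 0.20 was not called (adjusted p = 0.0897 by edgeR). It was called lower by DESeq2, over protein-coding genes alone and without replicate 4, and the adjusted p ranged from 0.00123 to 0.283 over the alternatives.

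**Figure D3:**
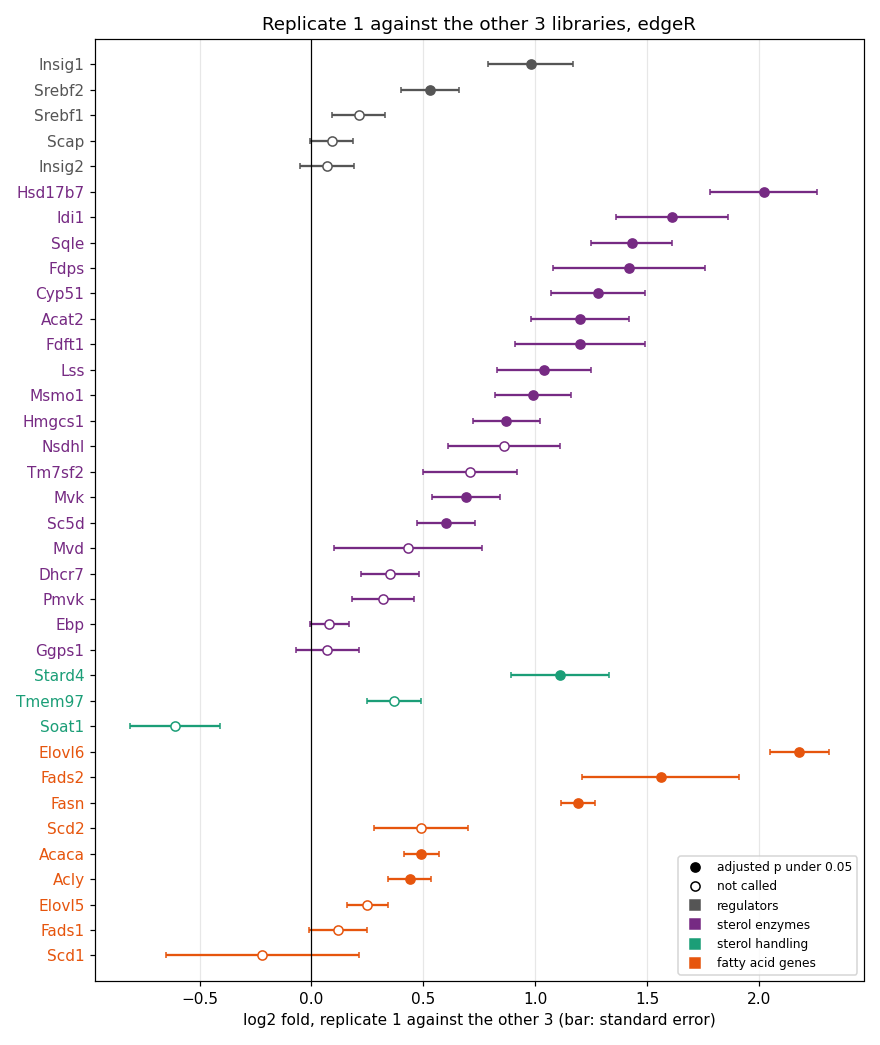
Log2 fold of replicate 1 against the other 3 libraries for each of the 36 genes, by group, with bars of 1 standard error; filled circles had an edgeR adjusted p under 0.05 and open circles did not. All 19 sterol enzymes lie above 0, from 0.07 to 2.02, while Soat1 and Scd1 lie below 0.

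Markers of dividing cells moved with the same library. Of 20 cell division genes, 18 were called higher in replicate 1, with a median log2 fold of 1.66, and their summed level was 508 TPM there against 122, 124 and 176 in replicates 2, 3 and 4. Their part in the sterol and fatty acid differences was not tested, and with bulk RNA a different mix of cells and a different level per cell cannot be told apart. Of the 20 calls among members, 15 held under all 9 alternatives. Those lost were Srebf2 (with DESeq2 size factors, or without replicate 3 or 4), Mvk (without replicate 3 or 4), Sc5d (without replicate 4), Acly (with DESeq2 size factors, or without any 1 of the other libraries) and Fdps (by DESeq2).

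Replicate 3 stood at the other end. On scaled log2 CPM it was the lowest library for 19 of 19 sterol enzymes, 7 of 9 fatty acid genes and 30 of 36 members, against 19.9% of all genes tested. Replicate 1 was the highest for 32 of 36 members (41.4% of all genes), and both held for 28 of 36 (13.3% of all genes). In replicate 1, 13 of 36 members lay at least 2-fold above the mean of the other 3, against 6.95% of all genes. None of the 36 was called when replicate 2, 3 or 4 was set against the other 3 by edgeR, and neither was any of the 14041 genes (0% in each direction). DESeq2 called 8, 3 and 17 of all genes in those comparisons and 0 members. These comparisons share their libraries, so a high replicate 1 also lowers the fold of each of the others.

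With replicate 1 left out, the low position of the sterol enzymes in replicate 3 was still seen, but no member passed the adjusted test. Against replicates 2 and 4, the log2 fold of replicate 3 was below 0 for 19 of 19 sterol enzymes, with a median of −0.44 and a range of −0.91 to −0.04. For the 9 fatty acid genes the median was −0.21, and for all genes tested it was 0.00. At an unadjusted p under 0.05, 15 of 36 members lay lower in replicate 3, 10 of them sterol enzymes, against 2.97% of all genes, and the adjusted p of every member was 1.000 by edgeR. The lowest folds were those of Scd1 (−0.97 ± 0.23), Fads2 (−0.95 ± 0.15), Fdps (−0.91 ± 0.11), Mvd (−0.80 ± 0.14) and Fdft1 (−0.73 ± 0.14). Fasn (−0.05 ± 0.083), Acaca (0.04 ± 0.086) and Elovl5 (0.06 ± 0.098) lay near 0 and Acly at −0.10, whereas Fads1 was at −0.27 ± 0.091 and Scd2 at −0.29 ± 0.23 (SE). Among the regulators Insig1 was at −0.46 ± 0.097, Srebf1 at −0.03 ± 0.14 and Scap at 0.10 ± 0.096. Nuclear-retained RNAs summed to 361, 284, 1117 and 1046 TPM in replicates 1 to 4, high in replicates 3 and 4 alike, and stromal markers summed to 1.52 TPM in replicate 3 against at most 0.14 TPM elsewhere. Their part in the low values of replicate 3 was not tested.

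**Figure D4:**
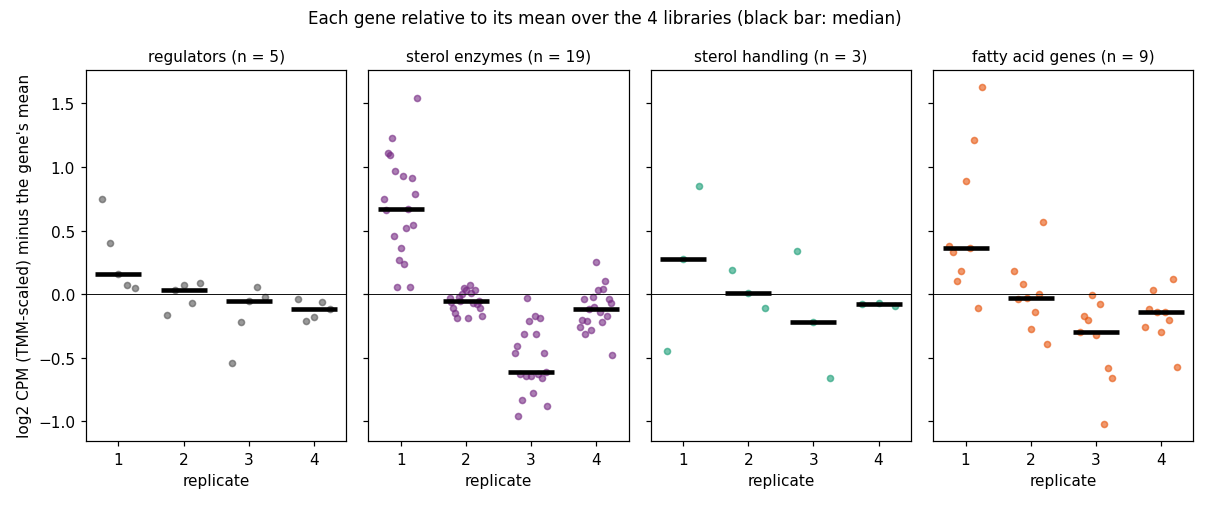
Log2 scaled CPM of each gene minus its own mean over the 4 libraries, by group and replicate (points: genes; black bars: the median of the group). Sterol enzymes have medians of 0.67, −0.05, −0.61 and −0.12 in replicates 1 to 4, and those of the regulators stay between 0.16 and −0.12.

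The sterol enzymes varied over a wide range between libraries. Their median SD of log2 CPM over the 4 libraries was 0.53, that of the fatty acid genes 0.33 and that of the regulators 0.15, against 0.25 for all genes tested. Over all members it was 0.43, and without replicate 1 it was 0.19, against 0.13 for all genes without that library. Elovl6 (1.09), Hsd17b7 (1.06) and Fads2 (0.92) varied most and Ebp (0.04) least.

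Other genes of the pathway, 53 in 4 lists of which 46 were tested, gave 8 genes called higher and 2 called lower in replicate 1. These shares lie near those of all genes tested (14.5% higher and 7.58% lower), and over the alternatives the counts ran from 4 to 12 higher and from 2 to 6 lower, so they say little about these lists as a whole. Of 9 genes that cleave SREBPs or degrade pathway proteins, 1 was higher, Erlin1, which helps degrade pathway proteins (log2 fold 0.41 ± 0.095), and the site proteases Mbtps1 (0.11 ± 0.098) and Mbtps2 (0.14 ± 0.077) were not called. The ubiquitin ligase genes March6 (15.2 ± 2.42 TPM) and Syvn1 (12.4 ± 1.49 TPM) were among the more abundant of this list (SD, n = 4). Of 8 genes of the isoprenoid side branches, 1 was higher, the ubiquinone enzyme Coq2 (0.68 ± 0.16). Nus1, a subunit of the dolichol-forming enzyme, was highest in level there at 21.7 ± 6.32 TPM, ahead of the farnesyltransferase subunit Fnta (11.6 ± 2.99 TPM) and the prenyltransferase subunit Pggt1b (7.59 ± 1.72 TPM).

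Of the 22 tested genes of other fatty acid synthesis and activation, 6 were higher and 2 lower in replicate 1, again against 14.5% and 7.58% of all genes tested. The higher ones were led by Me1, the cytosolic malic enzyme (3.88, 1.19, 1.36 and 1.54 scaled CPM in replicates 1 to 4, log2 fold 1.51 ± 0.32), Hacd1, an elongation dehydratase (4.56, 2.21, 1.43 and 1.82 scaled CPM, 1.32 ± 0.33), and Hsd17b12, the elongation ketoreductase (188, 80.3, 81.6 and 67.8 scaled CPM, 1.30 ± 0.12). In all 3 replicate 1 lay apart above the rest, as for Elovl6. The 2 lower genes were Acss2, which makes acetyl-CoA from acetate and is a known SREBP target, with 3.32, 11.1, 7.27 and 12.4 scaled CPM (log2 fold −1.63 ± 0.36, adjusted p = 0.0331 by edgeR), and Lpin1, a phosphatidate phosphatase, with 31.1, 83.9, 79.0 and 87.8 scaled CPM (−1.43 ± 0.10, adjusted p = 0.00327 by edgeR). Acly and Acss2, the citrate and acetate routes to cytosolic acetyl-CoA, thus lay on opposite sides in replicate 1. The most abundant of this list were Tecr (41.3 ± 11.6 TPM), Elovl1 (39.5 ± 9.16 TPM) and Hsd17b12 (39.3 ± 26.3 TPM). Of the 7 tested genes of sterol traffic and the LXR arm, none was called in replicate 1 by edgeR. Their median log2 fold was −0.30, with a range of −0.64 to 0.17. Npc2 (225 ± 31.7 TPM), Npc1 (74.8 ± 9.23 TPM) and Nr1h2 (20.4 ± 4.78 TPM), the first 2 exporting cholesterol from lysosomes and the last encoding LXR beta, were the most abundant.

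Transcript values placed limits on some of these levels. Annotated retained-intron transcripts took 1.72, 2.03, 3.48 and 3.12% of the members' summed TPM in replicates 1 to 4. The share was 18.0% ± 1.79 for Srebf2 and 18.6% ± 2.84 for Lss (SD, n = 4). For Fasn it was 19.6% ± 5.49, but 4.64% in the target tables, so the Fasn share depended on the quantification. Insig1 had 1.49 and 1.14% in replicates 1 and 2 and 6.08 and 8.28% in replicates 3 and 4. Replicates 3 and 4 are also the libraries high in nuclear-retained RNA, but a link between them and the Insig1 share was not tested. By mean share over the 4 libraries, the most abundant transcript was the same in both sets of tables for 36 of 36 genes. Within a library it could differ. In replicate 1, Fasn-201 held 41.6% and Fasn-205 36.8% of the gene's TPM, against 23.4% and 71.7% in the target tables. Fdft1 overlaps Ctsb, a cathepsin gene with a mean of 764375 counts on the opposite strand, and the strand setting of the counting was not known here, so reads of the 2 genes may not be told apart. Ctsb had a log2 fold of −0.39 in replicate 1 (adjusted p = 0.239 by edgeR), against 1.20 for Fdft1. Mvd, Ggps1, Cyp51, Tm7sf2 and Srebf1 also overlap a gene with a mean of at least 1000 counts. In that order, these partners had log2 folds in replicate 1 of 0.38 (Gm20388), −0.36 (Arid4b), −0.13 (Akap9), −0.18 (Vps51) and −0.22 (Rai1). The members had 0.43, 0.07, 1.28, 0.71 and 0.21. Vps51 lies on the same strand as Tm7sf2, so no strand setting would separate their reads. The part of overlap in these folds was not tested.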

How the data were processed

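Ribosome-depleted RNA of the cytosolic fraction was quantified in 4 libraries, each begun from 1 µg of RNA per the labels. The authors deposited expected counts and TPM per gene, expected counts, TPM and percent of the gene's TPM per transcript, and a further table per library of estimated counts and TPM per target (the target tables), on mm10 with the GENCODE M21 annotation. For the aligner, quantifier and strand setting: not given in the sources used here. Expected counts of annotated genes were rounded, and features naming no gene, 0.407, 0.224, 0.177 and 0.0267% of counts in replicates 1 to 4, were left out. Genes whose counts averaged 10 or more were tested with edgeR 4.0.16 (R 4.3.3, TMM scaling, quasi-likelihood test, Benjamini-Hochberg adjustment), each replicate against the other 3, so that the lone library is assumed to vary like the others. Log2 CPM used a prior count of 2, and group levels used log2(TPM + 1). DESeq2 1.42.0, its size factors, filters of 0 and 50 counts, protein-coding genes alone, the target tables and leaving out each replicate were the alternatives. The fitting step was tested on simulated data. Python 3.11.15 and matplotlib 3.10.9 drew the figures.

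The members and lists were chosen with earlier results of these data known. Values in every library were given for the regulators, handling genes, fatty acid genes, the 3 highest and 3 lowest sterol enzymes by mean TPM and the 6 called members with the largest log2 fold in a comparison. Of other pathway genes, the 3 highest in each list and up to 3 called in each direction were named, except 1 that is not reported here. Other genes were named after their values were seen. Promoters came from a RefSeq table on GRCm38.p6, which matched 29 of 36 members. Macrophage, adipocyte, hepatocyte, stromal, T cell, B cell, neutrophil and erythroid markers, cell division genes and nuclear-retained RNAs were listed as checks.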

Additional observations from a re-analysis of the deposited data

Results flagged for a closer look

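Hsd17b7 had 8.90 TPM in replicate 1, and the gap to the next library was 0.852 of the range of its 4 values. Elovl6 had 3.40 TPM in replicate 1, and the gap to the next library was 0.859 of its range. Both were singled out because 1 sample lay far from the other 3 by Dixon's test. Of 42 values examined, 2 were singled out, and chance does so for about 5% of groups.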

How the results depend on the processing

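The count of 20 members higher in replicate 1 was 16 to 22 over the alternatives and 16 to 21 with 1 other replicate left out, and no call changed direction in any of them. The count of 0 members lower became 1 by DESeq2 and 1 over protein-coding genes alone, Soat1 in each case, and was 0 to 1 with a replicate left out. Of other pathway genes, the 8 higher were 4 to 12 over all alternatives and 4 to 9 with a replicate left out (5 without replicate 3 and 4 without replicate 4). The 2 lower became 4 by DESeq2, 4 with no filter, 6 with a mean count of at least 50 and 6 over protein-coding genes alone, and were 2 to 5 with a replicate left out (5 without replicate 4); the cause was not tested. The sterol minus fatty acid difference in median level was −1.33 in CPM, which is not corrected for length, against −0.22 in TPM. The median SD of log2 CPM over the members was 0.43 with all libraries and 0.19 to 0.50 with a replicate left out (0.19 without replicate 1). Mean TPM in the gene tables was 1.92 to 2.82 times that in the target tables, and 25 of 36 member levels moved by more than 1 SD there. No paired analysis was possible because the 4 samples form 1 group. No other promoter window was run, since the table gives 1 fixed window. Depth of 30088678 to 47961117 counts leaves Elovl6, the member lowest in mean TPM, with 208 to 874 counts, and Tm7sf2 with 206 to 354.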

Other observations

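Among the marker lists that served as checks, T cell and B cell markers summed to at most 0.17 and 0.06 TPM in any library, erythroid markers to at most 0.06 TPM, and neutrophil markers to 9.43 to 13.6 TPM, nearly all from S100a8. Of 8 macrophage markers, Itgam was called higher in replicate 1 (log2 fold 1.02 ± 0.10, SE, adjusted p = 0.00532 by edgeR) and Mertk lower (−0.81 ± 0.15, adjusted p = 0.0234 by edgeR). Soat1 and Mertk, which were both lowest in replicate 1, had 619 and 135 scaled CPM there and at least 801 and 219 in the others. Several fatty acid genes known from other tissues were at or near 0 in these macrophages. Thrsp, Elovl3 and Elovl4 had at most 1 count in any library, Scd3 had 0 counts in all 4, and Elovl2 had at most 4 counts.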
